A study of Mus musculus with 6 samples.

Results

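The respiratory chain moves electrons from NADH and succinate to oxygen through complexes I to IV of the mitochondrial inner membrane, and complex V, ATP synthase, uses the proton gradient that complexes I, III and IV build. Complex II is made from nuclear genes alone, whereas each of the other complexes joins nuclear-encoded subunits, imported from the cytosol, to a few subunits that mitochondria make from their own DNA. Neural stem cells of the hippocampus are known for glycolytic metabolism, and oxidative phosphorylation gains weight as they give rise to neurons. The genes described here are the structural subunits of complexes I to V in such cells after exposure to cadmium, a toxic metal known to bind protein thiols and to disturb mitochondria.

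The cells were primary neural stem cells of wild-type mice, derived from the subgranular zone of the hippocampus and sequenced at passage 3. Of the 6 RNA sequencing libraries, 3 were of cells kept with 0.8 μM cadmium chloride (CdCl2) for 72 h and 3 of cells left untreated. The replicates are called biological, but separate animals or cultures are not stated, so the spread behind each p-value is that among these samples and may be technical. Members were the protein-coding genes whose symbols begin with Nduf and a subunit letter and number, Sdh (a to d), Uqcr, Cox4 to Cox8 or Atp5, together with the protein-coding genes of mitochondrial DNA. This gave 100 of the 25241 genes in the table of counts, 87 of them nuclear and 13 mitochondrial. Assembly factors and subunits with other symbols, such as Cyc1, Cycs and Ndufab1, were outside this rule. Atp5mc1 to Atp5mc3 stand in the table under their older symbols Atp5g1 to Atp5g3.

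Library totals ranged from 37710042 to 41523231 counts. The metallothionein gene Mt1, which is induced by cadmium, averaged 1278 ± 18.3 CPM (counts scaled to a common library size) in cadmium-treated cells and 562 ± 59.3 CPM in control cells (SD, n = 3 each). Among 8 neural stem cell marker genes, 3 rose and 4 fell, and their summed level was 6959 to 7157 CPM in the cadmium libraries and 6153 to 6429 CPM in the control libraries. Of 8 astrocyte marker genes, 1 rose and 7 fell, with sums of 3123 to 3284 CPM in cadmium and 5481 to 6532 CPM in control libraries. Neuronal markers summed to 605.5 to 690 CPM in cadmium and 682.1 to 720.9 CPM in control libraries (2 of 7 fell). Oligodendrocyte lineage markers summed to 957.7 to 1054 CPM in cadmium and 947.8 to 1043 CPM in control libraries (1 of the 5 tested rose and 3 fell), and Mog and Mag had fewer than 10 counts in each library. The microglial markers Csf1r, Tmem119 and C1qa, and the vascular markers Cldn5, Cdh5 and Dcn, also had fewer than 10 counts in each library, Cdh5 having 0. The microglial markers Cx3cr1 and Aif1 were not found under these symbols in the table of counts. The microglial list summed to 0.213 to 0.666 CPM in cadmium and 0.366 to 0.510 CPM in control libraries, and the endothelial and mural list to 1.77 to 2.20 CPM in cadmium and 3.02 to 3.38 CPM in control libraries. The part of these markers in the results below was not tested. In such bulk RNA, fewer cells of a type and less RNA per cell cannot be told apart.

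Of the 100 subunit genes, 97 had enough counts to be tested, and 22 of them (22.7%) passed an adjusted p of 0.05 in edgeR's quasi-likelihood test, 8 higher and 14 lower in cadmium-treated cells. Over all 14369 genes tested the same test called 45.5%, 23.1% higher and 22.4% lower. Most differences among the subunit genes were small. A log2 fold change (cadmium over control) within 0.2 of zero was found for 84 of the 97 subunit genes, against 50.1% of all genes tested. The median absolute log2 fold change was 0.086 over the subunit genes and 0.20 over all genes. Cadmium and control libraries did not overlap for 33 subunit genes (34.0%), against 56.3% of all genes.

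Among the 84 nuclear subunit genes tested, 6 rose and 14 fell (23.8% called, against 45.5% of all genes tested). Their median log2 fold change was -0.04, beside -0.01 over all genes tested. Cox6a2, among the 6 that rose, passed the count filter through its cadmium libraries alone. Leaving out cadmium replicate 2 left 2 that rose, leaving out cadmium replicate 3 left 3 that rose and 9 that fell, and leaving out cadmium replicate 1 left 6 that fell. Of the 13 mitochondrial genes, 2 rose and 0 fell by edgeR's adjusted p (15.4% called), and 3 were higher and 1 lower at an unadjusted p below 0.05. DESeq2, which called 37.5% of the 16335 genes it adjusted over, also gave 2 that rose and 0 that fell. The mitochondrial median was 0.19, but its sign rested on the 5 genes with a near-identical nuclear copy, described with the mitochondrial genes, which were all above zero (median 0.23). Over the other 8 genes the median was -0.06, with 3 above and 5 below zero. Summed over members, nuclear subunit genes held 17010 ± 334 CPM in cadmium-treated and 17310 ± 494 CPM in control cells, and mitochondrial genes 33040 ± 2017 CPM in cadmium-treated and 33430 ± 1621 CPM in control cells (SD, n = 3 each).

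**Figure D1:**
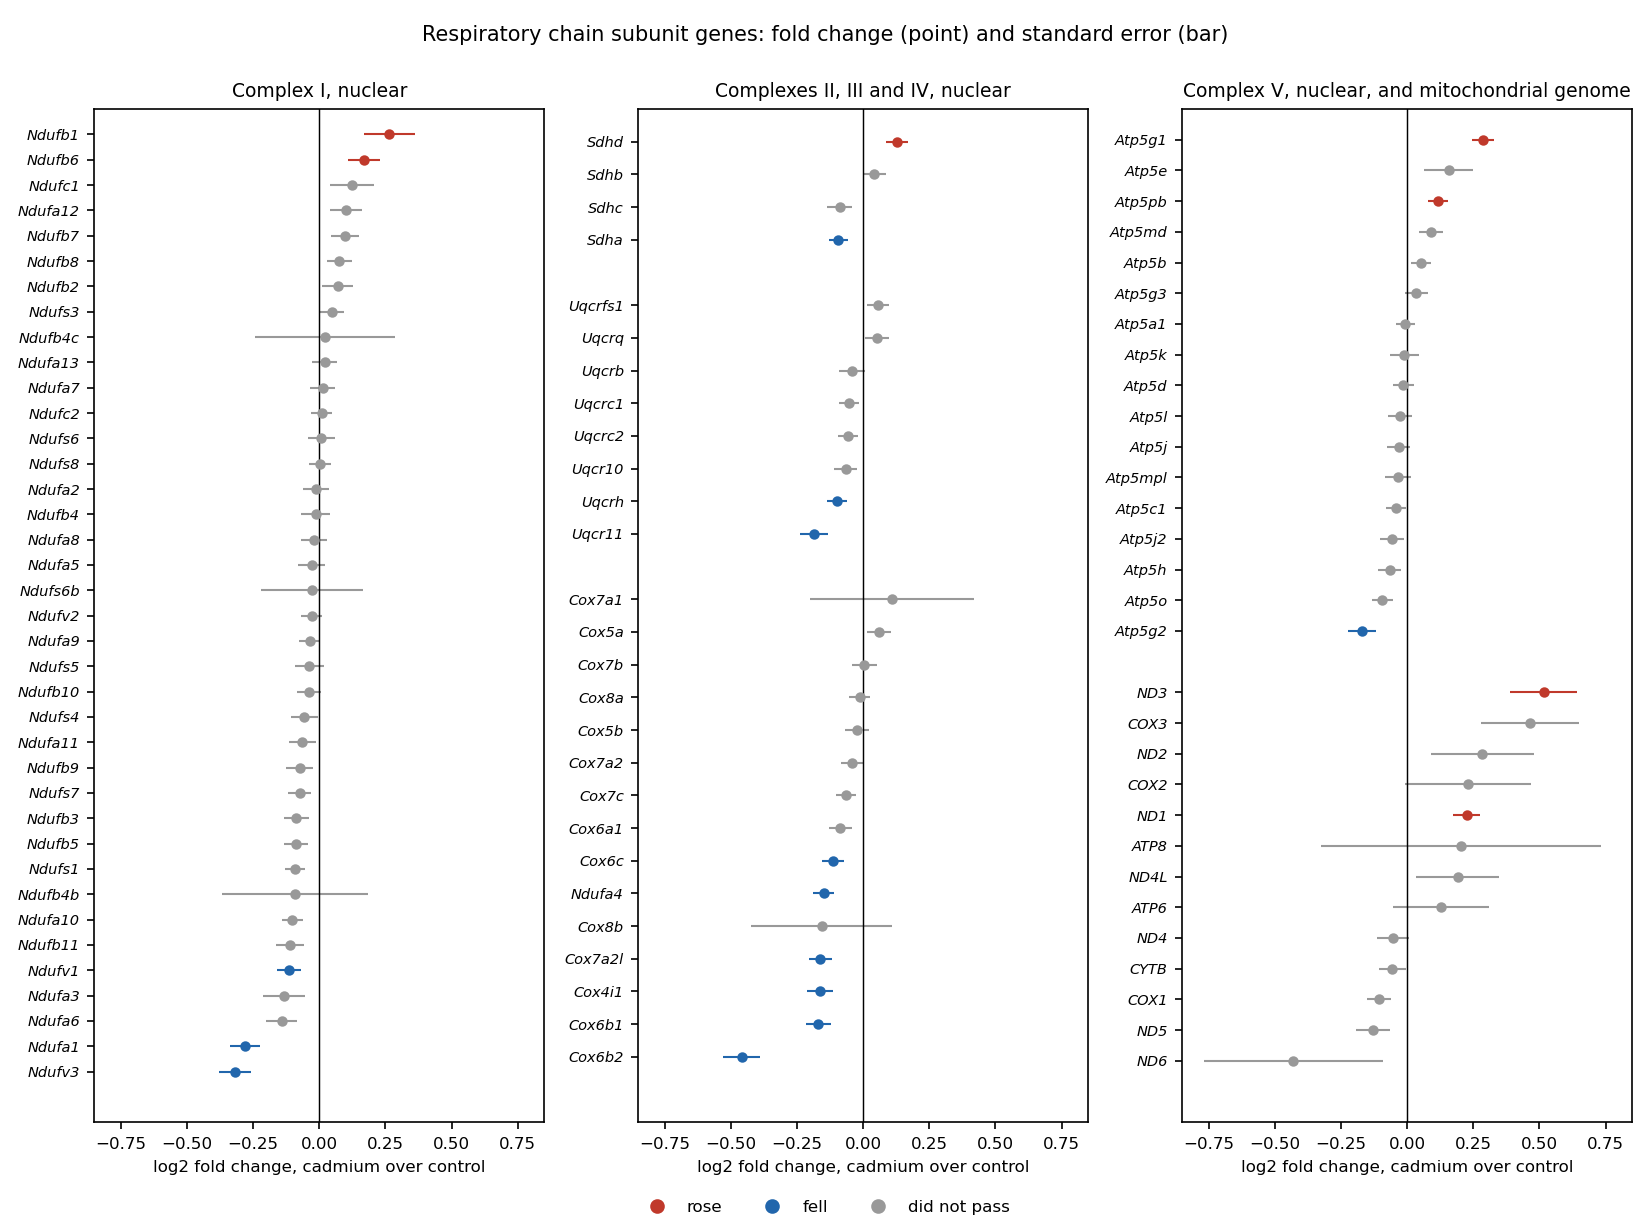
Log2 fold change (cadmium over control) of each subunit gene tested, grouped by complex and genome of origin, with bars of 1 SE; coloured points passed an adjusted p of 0.05 in edgeR and grey points did not. Cox6a2, at 2.54, lies beyond the axis and is left out, and not every complex I gene is shown; most points lie within 0.2 of zero.

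The plot of fold changes by complex shows most genes close to zero in each complex, with single genes standing apart in complexes I, IV and V. By complex, summed nuclear transcripts in cadmium-treated cells against control cells were 3981 ± 91.6 against 4101 ± 144 CPM for complex I, 1199 ± 16.6 against 1225 ± 30.6 CPM for complex II, and 1575 ± 45.7 against 1624 ± 29.9 CPM for complex III. They were 2865 ± 40.6 against 3050 ± 137 CPM for complex IV and 7388 ± 142 against 7314 ± 155 CPM for complex V. Only for complex IV among the 5 did the groups not overlap, with 2832, 2910 and 2853 CPM in the cadmium libraries and 3000, 2945 and 3205 CPM in the control libraries. Mitochondrially encoded transcripts summed to 12820 ± 1253 CPM in cadmium-treated and 11890 ± 341 CPM in control cells for complex I, and to 5434 ± 299 and 5652 ± 368 CPM for complex III. The mitochondrial sums of complex IV were 14750 ± 560 CPM in cadmium-treated and 15860 ± 938 CPM in control cells, and those of complex V 37.0 ± 5.16 and 33.6 ± 8.38 CPM.

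**Figure D2:**
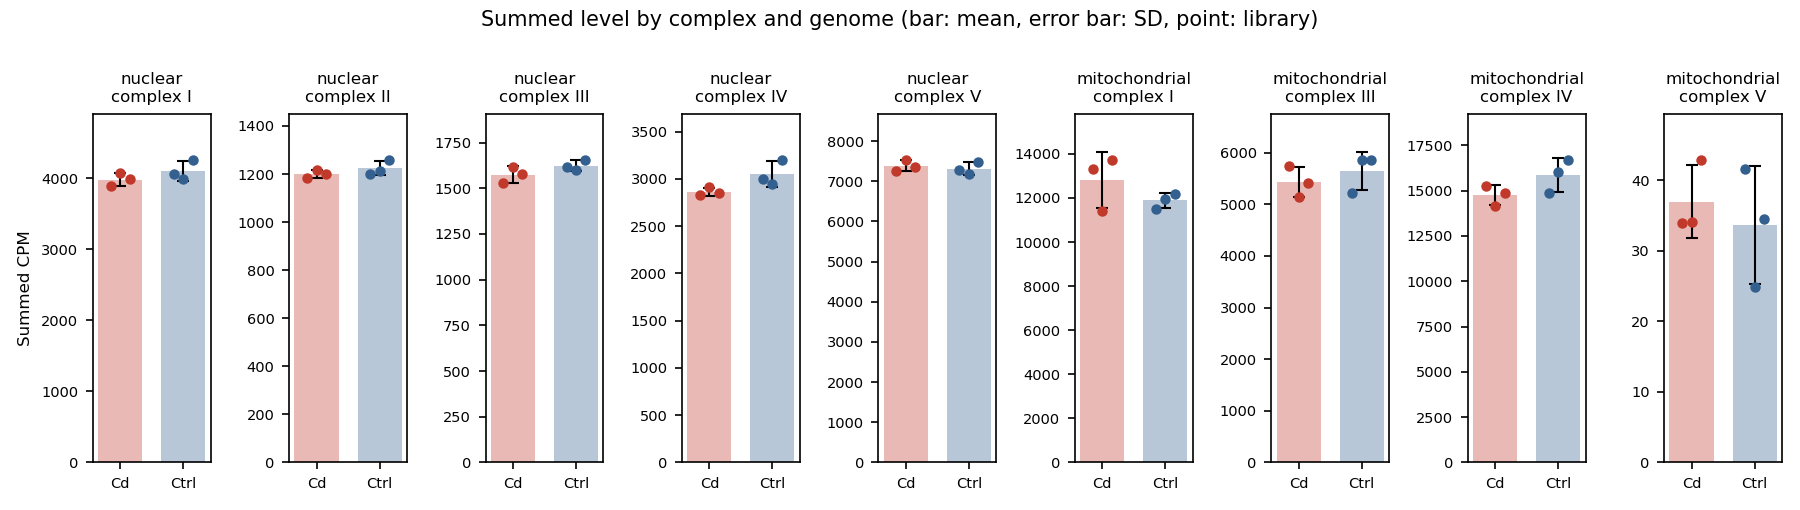
Summed CPM of the subunit genes of each complex for nuclear and mitochondrial genes, with cadmium left of control, points for libraries, bars for the mean and error bars for the SD (n = 3 each). Cadmium and control libraries overlap in each nuclear sum except that of complex IV.

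Complex I oxidises NADH and passes the electrons to coenzyme Q. Of its 39 nuclear subunit genes, 2 rose and 4 fell (15.4% called, against 45.5% of all genes tested), with a median log2 fold change of -0.03. Ndufv3 (Entrez 78330), an accessory subunit of the NADH-oxidising module, had 102.2, 105.6 and 101.1 CPM in the cadmium libraries and 117.7, 125.0 and 142.6 CPM in the control libraries. Each cadmium library lay below each control library, and the gene fell by 0.32 ± 0.06 (log2 fold change ± SE, edgeR adjusted p = 0.000684). Ndufa1 (Entrez 54405), a small accessory subunit of the membrane arm, had 32.25, 31.03 and 31.79 CPM in cadmium and 38.84, 37.11 and 39.66 CPM in control libraries, again without overlap. It fell by 0.28 ± 0.06 (edgeR adjusted p = 0.000847). Both kept the call under each of the 15 alternative settings.

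The 7 core nuclear subunits of complex I, among them those with the redox centres, had a median log2 fold change of -0.07. Ndufv1, which holds the flavin that accepts electrons from NADH, had 142.8, 152.4 and 145.8 CPM in cadmium and 162.9, 152.2 and 162.3 CPM in control libraries, and fell by 0.11 ± 0.04 (edgeR adjusted p = 0.0454). For Ndufv1 cadmium replicate 2 was above control replicate 2. The Ndufv1 call was lost under 8 of 15 alternatives.

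The accessory subunits Ndufb1 and Ndufb6, both of the membrane arm, rose. Ndufb1 had 37.66, 40.08 and 38.43 CPM in cadmium and 33.31, 26.61 and 36.74 CPM in control libraries (log2 fold change 0.27 ± 0.10, edgeR adjusted p = 0.0396). Ndufb6 had 69.77, 78.54 and 66.74 CPM in cadmium and 65.79, 60.35 and 65.0 CPM in control libraries (0.17 ± 0.06, edgeR adjusted p = 0.0338). The groups did not overlap for either gene, yet the highest control library came within 1 CPM of the lowest cadmium library in each, and the calls were lost under 7 and 6 alternatives. Per length, Ndufc2 was the nuclear complex I gene with the highest level, at 466.1 FPKM (counts scaled by gene length and library size) in cadmium-treated and 465.9 FPKM in control cells.

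Complex II, succinate dehydrogenase, links the citric acid cycle to the chain, and its 4 genes did not move together. Sdha, the flavoprotein that oxidises succinate, had 479.2, 491.3 and 493.1 CPM in cadmium and 518.7, 519.5 and 523.9 CPM in control libraries, and fell by 0.09 ± 0.04 (edgeR adjusted p = 0.042). Sdhd, one of the membrane anchors, had 204.0, 213.8 and 205.8 CPM in cadmium and 187.1, 197.3 and 186.5 CPM in control libraries, and rose by 0.13 ± 0.04 (edgeR adjusted p = 0.0191). Neither gene's groups overlapped. The iron-sulfur subunit gene Sdhb had 226.0, 233.5 and 229.4 CPM in cadmium and 221.2, 212.5 and 235.9 CPM in control libraries (0.04 ± 0.04, edgeR adjusted p = 0.47). The other anchor, Sdhc, had 273.2, 277.2 and 270.4 CPM in cadmium and 275.1, 284.6 and 313.6 CPM in control libraries (-0.09 ± 0.05, edgeR adjusted p = 0.133). The Sdha call was lost under 9 of 15 alternatives and the Sdhd call under 3, without cadmium replicate 2, cadmium replicate 3 or control replicate 1.

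Complex III passes electrons from coenzyme Q to cytochrome c, and 2 of its 8 nuclear subunit genes fell. The share called was below the 45.5% of all genes tested, and the share that fell was near the 22.4% of all genes tested. Uqcr11, a small subunit, had 109.2, 122.8 and 116.4 CPM in cadmium and 125.7, 130.8 and 139.7 CPM in control libraries, without overlap, and fell by 0.19 ± 0.05 (edgeR adjusted p = 0.00928, and 0.0673 without cadmium replicate 1). Uqcrh, the hinge protein, had 189.9, 198.3 and 190.9 CPM in cadmium and 206.6, 205.6 and 208.2 CPM in control libraries, and fell by 0.10 ± 0.04 (edgeR adjusted p = 0.0456, lost under 8 of 15 alternatives). Of these 8 genes, 0 rose by edgeR's adjusted p, at an unadjusted p below 0.05 or by DESeq2; Cyc1, a complex III subunit outside the symbol rule, is given with the other genes of the chain.

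Complex IV, cytochrome c oxidase, hands the electrons to oxygen. Several of its nuclear subunits have isoforms with known tissue patterns. Of the 16 genes tested, 6 fell and 1 rose, with a median log2 fold change of -0.08. The share called, 43.8%, was near the 45.5% of all genes tested. Cox6b2, the isoform of COX6B known from testis, had 26.86, 29.48 and 26.98 CPM in cadmium and 36.7, 35.67 and 42.18 CPM in control libraries. It fell by 0.46 ± 0.07 (edgeR adjusted p = 0.000112), the largest fall among the members that passed. Its general counterpart Cox6b1, on the intermembrane side of the complex, had 244.7, 248.2 and 245.0 CPM in cadmium and 261.5, 270.4 and 297.9 CPM in control libraries, and fell by 0.17 ± 0.05 (edgeR adjusted p = 0.00817). Both genes were lower in each cadmium library than in each control library. Per length, Cox6b2 made up 8.07% ± 0.333 of COX6B transcripts in cadmium-treated and 9.68% ± 0.333 in control cells, the share being taken of summed FPKM.

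Cox4i1, the ubiquitous isoform of the subunit that binds ATP as a regulator, had 452.2, 466.0 and 456.9 CPM in cadmium and 492.3, 490.3 and 557.6 CPM in control libraries. It fell by 0.16 ± 0.05 (edgeR adjusted p = 0.0114, and 0.0564 without cadmium replicate 1). Its partner Cox4i2, known from lung and from cells short of oxygen, had 2, 1 and 4 counts in cadmium and 14, 3 and 3 counts in control libraries and was not tested. Cox7a2l, which links complexes III and IV in supercomplexes, had 166.7, 169.9 and 166.9 CPM in cadmium and 180.9, 184.5 and 198.4 CPM in control libraries and fell by 0.16 ± 0.04 (edgeR adjusted p = 0.00637). Its relatives Cox7a2, the widely expressed isoform, and Cox7a1, the heart and muscle isoform, gave -0.04 ± 0.04 (edgeR adjusted p = 0.442) and 0.11 ± 0.31 (edgeR adjusted p = 0.803). Ndufa4, named for complex I but now counted with complex IV, had 227.5, 239.2 and 234.5 CPM in cadmium and 256.3, 251.0 and 270.8 CPM in control libraries and fell by 0.15 ± 0.04 (edgeR adjusted p = 0.00822, and 0.0543 without cadmium replicate 1). Its hypoxia-inducible relative Ndufa4l2 had 5, 6 and 7 counts in the cadmium libraries and 6, 7 and 9 in the control libraries and was not tested. Cox7b2, the third member not tested, had 0, 0 and 0 counts in cadmium and 1, 2 and 0 counts in control libraries. The groups did not overlap for Cox4i1, Cox7a2l or Ndufa4. Cox6c was the sixth gene that fell, at -0.11 ± 0.04 (edgeR adjusted p = 0.0374, lost under 7 of 15 alternatives).

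The gene that rose was Cox6a2 (Entrez 12862), the heart and skeletal muscle isoform of COX6A. It had 25, 11 and 16 counts in the cadmium libraries and 1, 3 and 5 counts in the control libraries, or 0.615, 0.293 and 0.395 CPM against 0.0244, 0.0717 and 0.122 CPM. The groups did not overlap, but the gene had passed the count filter through its cadmium libraries alone. The log2 fold change was 2.54 ± 0.58 (edgeR adjusted p = 0.00236), and it ranged from 0.57 on the log2(FPKM + 1) scale to 3.10 among the alternatives that kept the gene. At such counts the size of the change is poorly fixed, and Cox6a2 made up 0.120% ± 0.0474 of summed COX6A FPKM in cadmium-treated and 0.0184% ± 0.0115 in control cells. The widely expressed isoform Cox6a1 had 292.1, 302.9 and 296.5 CPM in cadmium and 304.9, 306.6 and 335.5 CPM in control libraries (-0.09 ± 0.04, edgeR adjusted p = 0.114). Of the COX8 pair, Cox8a gave -0.01 ± 0.04 (edgeR adjusted p = 0.801), and Cox8b, the heart and muscle isoform, averaged 1.46 CPM in cadmium-treated and 1.62 CPM in control cells (-0.16 ± 0.27, edgeR adjusted p = 0.66).

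In complex V the catalytic F1 head and the membrane ring can be read separately. Of its 17 nuclear genes, 17.6% were called, against 45.5% of all genes tested. Of the 5 genes of F1, 0 rose and 0 fell by edgeR's adjusted p, by DESeq2 or at an unadjusted p below 0.05. Among these, Atp5e was called as higher with no count filter, and again without control replicate 3. The catalytic β subunit gene Atp5b, the nuclear member with the highest level per length in both groups (1331 FPKM in cadmium-treated and 1291 FPKM in control cells), had 2432, 2572 and 2526 CPM in cadmium and 2449, 2362 and 2448 CPM in control libraries. Its groups overlapped, and its log2 fold change was 0.05 ± 0.04 (edgeR adjusted p = 0.262). Of the 4 peripheral stalk genes, Atp5pb had 369.5, 382.9 and 367.1 CPM in cadmium and 346.4, 346.1 and 339.3 CPM in control libraries, and rose by 0.12 ± 0.04 (edgeR adjusted p = 0.0176, 0.085 without cadmium replicate 2 and 0.0501 without cadmium replicate 3). Atp5o, of the same stalk, had 344.3, 342.7 and 343.0 CPM in cadmium and 348.9, 370.8 and 379.9 CPM in control libraries, lower without overlap, but did not pass (-0.09 ± 0.04, edgeR adjusted p = 0.0678), though it did under 4 of 15 alternatives. The gene of the inhibitory factor, Atpif1, which is not a member, averaged 123.6 CPM in cadmium-treated and 124.8 CPM in control cells (-0.01 ± 0.04, edgeR adjusted p = 0.826).

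The rotating c ring of ATP synthase is built from a single mature protein that 3 nuclear genes encode, Atp5g1, Atp5g2 and Atp5g3, which differ in the leader peptide that is cut off on import. These genes moved apart. Atp5g1 (Entrez 11951) had 113.5, 118.0 and 118.5 CPM in cadmium and 93.8, 97.24 and 96.03 CPM in control libraries. Each cadmium library was above each control library, and the gene rose by 0.29 ± 0.04 (edgeR adjusted p = 7.78e-05), with calls under all 15 alternatives. Atp5g2 (Entrez 67942) had 232.7, 224.7 and 233.6 CPM in cadmium and 238.1, 257.8 and 281.7 CPM in control libraries, without overlap in the other direction. It fell by 0.17 ± 0.05 (edgeR adjusted p = 0.0164, and 0.0715 without cadmium replicate 2). Atp5g3 (Entrez 228033) had 556.9, 561.8 and 537.2 CPM in cadmium and 542.9, 509.5 and 564.3 CPM in control libraries, overlapping (0.03 ± 0.04, edgeR adjusted p = 0.536).

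Set per length, Atp5g1 gave 13.5% ± 0.380 of the summed FPKM of the 3 genes in cadmium-treated and 10.9% ± 0.540 in control cells. For Atp5g2 the share was 41.0% ± 0.899 in cadmium-treated and 45.4% ± 1.82 in control cells, and for Atp5g3 it was 45.5% ± 0.941 and 43.8% ± 1.72. The sum of the 3 genes was 865.4 ± 5.89 FPKM in cadmium-treated and 884.5 ± 37.7 FPKM in control cells (SD, n = 3 each), a difference smaller than the spread among the control libraries. How the authors counted reads that match more than 1 of these genes is not stated.

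**Figure D3:**
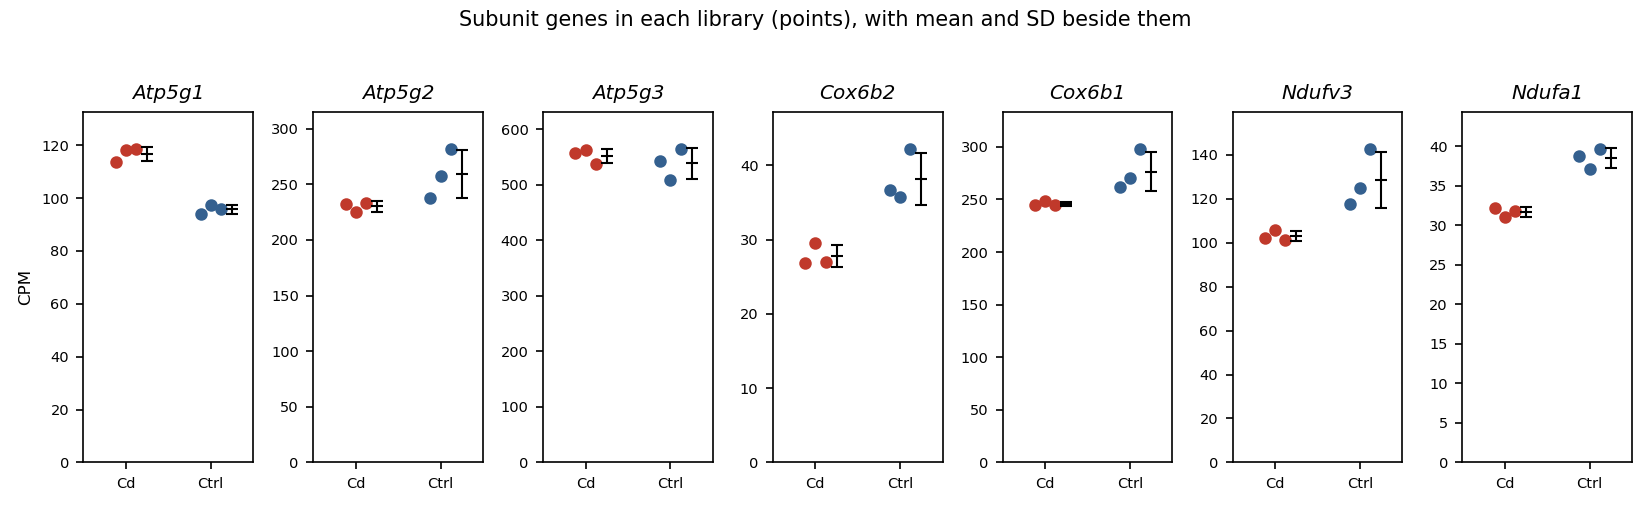
CPM of the c subunit genes Atp5g1, Atp5g2 and Atp5g3 and of Cox6b2, Cox6b1, Ndufv3 and Ndufa1, one point per library, with cadmium left of control and mean ± SD beside the points. Atp5g1 is higher, and Atp5g2, Cox6b2, Cox6b1, Ndufv3 and Ndufa1 are lower, in each of the 3 cadmium libraries than in each control library, while Atp5g3 overlaps.

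The promoters of the c subunit genes are shown because these genes encode one mature protein and their transcripts moved apart. The windows run 5′ to 3′ on the gene's strand, from 250 bases before to 50 after the annotated start (RefSeq, GRCm38.p6), and capitals mark bases that match GCGCATG on either strand, letters from the site of NRF1, a factor known to act on respiratory chain genes.
Atp5g1 chr11:96075582-96075881 (-): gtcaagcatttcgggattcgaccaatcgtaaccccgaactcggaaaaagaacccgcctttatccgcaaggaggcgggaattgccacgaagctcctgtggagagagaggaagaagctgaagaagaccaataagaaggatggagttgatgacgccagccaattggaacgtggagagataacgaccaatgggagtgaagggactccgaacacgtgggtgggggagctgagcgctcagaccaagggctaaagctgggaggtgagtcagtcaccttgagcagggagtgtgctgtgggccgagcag
Atp5g2 chr15:102670998-102671297 (-): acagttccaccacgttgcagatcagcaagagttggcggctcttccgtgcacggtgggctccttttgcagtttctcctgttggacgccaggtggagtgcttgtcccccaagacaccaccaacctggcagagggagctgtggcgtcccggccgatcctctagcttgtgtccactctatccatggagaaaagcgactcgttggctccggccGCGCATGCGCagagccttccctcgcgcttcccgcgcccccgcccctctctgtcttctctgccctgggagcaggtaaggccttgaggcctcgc
Atp5g3 chr2:73911277-73911576 (-): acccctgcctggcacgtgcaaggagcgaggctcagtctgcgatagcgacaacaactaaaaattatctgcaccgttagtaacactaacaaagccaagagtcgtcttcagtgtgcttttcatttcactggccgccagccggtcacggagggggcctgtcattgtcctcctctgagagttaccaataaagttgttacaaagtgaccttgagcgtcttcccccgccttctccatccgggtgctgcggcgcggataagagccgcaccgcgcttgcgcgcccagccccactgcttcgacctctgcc
The Atp5g2 window held the letters on both strands, as overlapping matches, and the windows of Atp5g1 and Atp5g3 held none of the 3 motifs searched. The other motifs were CCGGAAG, bound by ETS factors such as the GA-binding protein, and AAGATGG, from the site of YY1. Each was read on both strands.

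RefSeq promoter windows were found for 70 of the 87 nuclear subunit genes, 75 windows in all. The NRF1 letters were in 13 of them (17.3%), against 3.91% of all 32851 windows of the same length. The ETS motif was in 17 (22.7%), against 8.86% of all windows, and the YY1 letters in 11 (14.7%), against 6.34%. Among the 16 windows of subunit genes that rose or fell, the NRF1 letters were in 3, the ETS motif in 5 and the YY1 letters in 1. A match describes letters in a window and not the binding of a factor.

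The 13 mitochondrial genes are transcribed as long precursors from both strands of mitochondrial DNA and cut at the transfer RNAs between them. Their levels per length were far apart. ND1, ND2, COX1, ND4, ND5 and CYTB lay between 1095 and 10670 FPKM in the 6 libraries, whereas COX2, ATP6, COX3, ND3 and ND4L lay between 10.6 and 138 FPKM, and ATP8 and ND6 between 13.5 and 43.3 FPKM. COX1, the catalytic subunit of complex IV, had the highest level, with 9792, 9057 and 9472 FPKM in cadmium and 9635, 10380 and 10670 FPKM in control libraries. COX3, a subunit of the same complex, had 45.9, 38.5 and 62.4 FPKM in cadmium and 32.3, 39.5 and 35.2 FPKM in control libraries.

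Of the 7 genes at 138 FPKM or less, 5 share a feature of sequence: COX2, ATP6, COX3, ND3 and ND4L. Each of these is covered over at least 99% of its length, at 99% identity or more, by an annotated pseudogene on chromosome 1 (GENCODE M21, GRCm38), where nuclear copies of mitochondrial DNA stand side by side on the minus strand. The pseudogenes are Gm28661 for COX2 (chr1:24614885-24615565), Gm10925 for ATP6 (chr1:24613974-24614651), Gm28437 for COX3 (chr1:24613189-24613971), Gm28438 for ND3 (chr1:24612775-24613119) and Gm10222 for ND4L (chr1:24612407-24612700). The next gene, ND4, was covered over 63.6% of its length (Gm28439, chr1:24611535-24612410), COX1 over 31.3% and ATP8 over 21.1%, while ND1, ND2, ND5, ND6 and CYTB had no such cover (0%). ATP8 and ND6, without a full copy of this kind, were as low as the 5 genes that have one. The sources used here do not say how reads with more than 1 match were counted, and the part of these copies in the low counts was not tested. Levels of COX2, ATP6, COX3, ND3 and ND4L are therefore uncertain.

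Windows of 60 bases set a gene with a copy above the 99% identity limit beside COX1, whose full-length copy lies below that limit. They are read 5′ to 3′ from the GENCODE M21 transcripts. Bases 301 to 360 of COX3 and the matching stretch of its copy Gm28437 are identical. Bases 460 to 519 of COX1 and the matching stretch of Gm13340, its longest copy (chromosome 2, 97.6% identity over 1545 bases), have 4 mismatches, set in capitals. That COX1 window was the one with the most mismatches along the alignment.
COX3: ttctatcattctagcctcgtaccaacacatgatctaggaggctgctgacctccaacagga
Gm28437: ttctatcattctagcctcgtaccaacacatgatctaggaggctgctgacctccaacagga
COX1: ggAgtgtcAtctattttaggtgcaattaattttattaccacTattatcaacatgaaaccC
Gm13340: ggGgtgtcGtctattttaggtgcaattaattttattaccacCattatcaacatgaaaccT

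**Figure D4:**
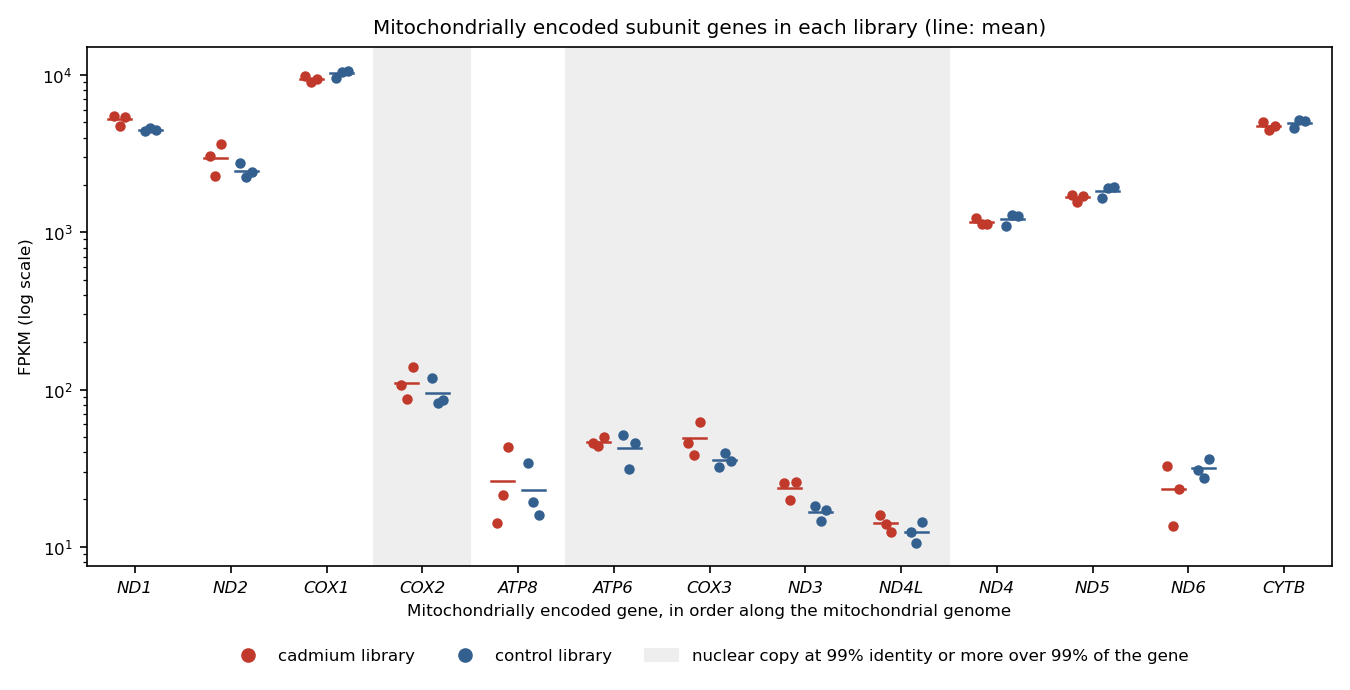
FPKM of the 13 mitochondrially encoded genes in each library on a log axis, in their order on the genome, with cadmium left of control; the grey band marks genes with a nuclear copy of 99% identity or more over at least 99% of their length. The 5 banded genes lie between 10.6 and 138 FPKM, and ND1, ND2, COX1, ND4, ND5 and CYTB lie at 1095 FPKM or more.

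ND1 and ND3, membrane subunits of complex I, were the mitochondrial genes that rose. ND1 (Entrez 17716) had 5255, 4550 and 5231 CPM in cadmium and 4187, 4384 and 4292 CPM in control libraries, without overlap, a log2 fold change of 0.23 ± 0.05 (edgeR adjusted p = 0.00232). ND3 (Entrez 17718) had 8.88, 6.90 and 8.98 CPM in cadmium and 6.27, 5.05 and 6.03 CPM in control libraries, also without overlap (0.52 ± 0.13, edgeR adjusted p = 0.00405). ND3 is among the genes with a near-identical nuclear copy. Both calls held under each alternative that tested them.

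The next protein gene after ND1 on the mitochondrial genome, ND2, had 3170, 2392 and 3777 CPM in cadmium and 2824, 2322 and 2521 CPM in control libraries. Cadmium replicate 2 lay among the control libraries, and the log2 fold change of 0.28 ± 0.20 did not pass (edgeR adjusted p = 0.305). Without that library it was 0.44 (edgeR adjusted p = 0.00441). COX3 had 36.0, 30.3 and 49.2 CPM in cadmium and 25.1, 30.7 and 27.9 CPM in control libraries (0.47 ± 0.19, edgeR adjusted p = 0.088). These groups overlapped, and COX3 passed without cadmium replicate 2 (edgeR adjusted p = 0.00378) or without cadmium replicate 3 (edgeR adjusted p = 0.0493). With ND2 and COX3 added, 4 mitochondrial genes were higher without cadmium replicate 2.

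Mitochondrial genes with values below zero were COX1, ND4, ND5, CYTB and ND6, and their groups overlapped. COX1 had 15140, 14050 and 14710 CPM in cadmium and 14750, 15920 and 16630 CPM in control libraries (-0.11 ± 0.05, edgeR adjusted p = 0.0683). ND5, a proton-pumping subunit of complex I, had 3173, 2858 and 3134 CPM in cadmium and 2988, 3454 and 3589 CPM in control libraries (-0.13 ± 0.06, edgeR adjusted p = 0.125). In both genes control replicate 1 was lower than the other two control libraries. Without it, COX1, ND4 and ND5 passed the test, at -0.15 (edgeR adjusted p = 0.0114), -0.13 (edgeR adjusted p = 0.0273) and -0.20 (edgeR adjusted p = 0.00298). ND4, also a proton-pumping subunit, gave -0.06 ± 0.06 (edgeR adjusted p = 0.487) over all libraries, and CYTB, the cytochrome b of complex III, -0.06 ± 0.05 (edgeR adjusted p = 0.385).

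ND6, the one member encoded on the other strand, had 17.1, 7.03 and 12.2 CPM in cadmium and 15.9, 14.2 and 19.1 CPM in control libraries (-0.43 ± 0.34, edgeR adjusted p = 0.36), and gave -0.76 without cadmium replicate 1 (edgeR adjusted p = 0.0321). It overlaps the end of ND5, and without a known strand setting reads of that stretch cannot be kept apart. ATP8 and ATP6, and ND4L and ND4, overlap on one strand, where strand does not separate their reads. The remaining genes were ATP6 at 0.13 ± 0.18 (edgeR adjusted p = 0.607), ATP8 at 0.20 ± 0.53 (edgeR adjusted p = 0.79), COX2 at 0.23 ± 0.24 (edgeR adjusted p = 0.491) and ND4L at 0.19 ± 0.16 (edgeR adjusted p = 0.339). ATP6 and ATP8 belong to the membrane part of ATP synthase, COX2 to the copper-binding core of complex IV and ND4L to complex I. The cadmium and control libraries overlapped for each of these 4 genes.

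Genes that serve the chain without matching the rule were read from the same fit. Cytochrome c, the carrier between complexes III and IV, is encoded by Cycs, which had 173.4, 191.7 and 181.4 CPM in cadmium and 150.3, 149.1 and 127.6 CPM in control libraries. It rose by 0.36 ± 0.06 (edgeR adjusted p = 0.000421), without overlap. Ndufab1, the acyl carrier protein of complex I (0.16 ± 0.05, edgeR adjusted p = 0.0112), and Cyc1, the cytochrome c1 of complex III (0.12 ± 0.04, edgeR adjusted p = 0.0247), rose as well, making 3 of 4 subunit genes with other symbols. In the main test 75.0% of the 4 were called, against 45.5% of all genes tested. Without cadmium replicate 2 or cadmium replicate 3, 1 of the 4 was called. Reads of Ndufab1 may be shared with its copy Ndufab1-ps, which had 6.67 ± 0.220 CPM in cadmium-treated and 4.26 ± 0.288 CPM in control cells.

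Assembly factors, which help build the complexes and are not part of them, were counted by complex. Of 16 factors for complex I, 6 rose and 1 fell (43.8% called, against 45.5% of all genes tested). Without control replicate 2, at 5 CPM or more and on both log2 FPKM scales, 2 fell. Ndufaf6 rose by 0.59 ± 0.09 (edgeR adjusted p = 0.000157), with 10.6, 10.4 and 10.8 CPM in cadmium and 7.36, 7.25 and 6.49 CPM in control libraries. Ndufaf8 (0.43) and Ecsit (0.30) also rose, and Ndufaf3 fell by 0.23. Of 20 factors tested for complex IV, 5 rose and 2 fell. The share called was below the 45.5% of all genes tested. Over all genes 23.1% rose, near the share of these factors, and 22.4% fell, above it. Cox14 rose by 0.31, the copper chaperone gene Cox17 by 0.30 and the heme A synthesis gene Cox10 by 0.22, whereas Taco1, which aids COX1 translation, fell by 0.23 and Surf1 by 0.18. Without cadmium replicate 1, 0 complex IV factors fell. By DESeq2, with no count filter, or without cadmium replicate 2, control replicate 1 or control replicate 3, 1 fell. Of 14 factors for complexes II, III and V, 14.3% were called. Uqcc1 rose by 0.19 and Uqcc3, both of complex III, fell by 0.53 ± 0.07 (edgeR adjusted p = 5e-05). With no count filter 3 of the 14 rose. On both log2 FPKM scales, with the replicate number as a block, or without cadmium replicate 2 or control replicate 3, 2 rose.

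Regulators of the chain's genes were mostly higher. Of 9, 6 rose and 0 fell by edgeR and by DESeq2 alike, and 0 were lower at an unadjusted p below 0.05. By edgeR 66.7% were called, against 45.5% of all genes tested, and the median log2 fold change was 0.35. Pprc1, a coactivator related to PGC-1α, had 38.40, 40.43 and 38.35 CPM in cadmium and 21.02, 22.72 and 19.10 CPM in control libraries, without overlap, and rose by 0.90 ± 0.07 (edgeR adjusted p = 3.7e-07). Esrra, an orphan nuclear receptor known to act on mitochondrial genes, rose by 0.42 ± 0.06 (edgeR adjusted p = 3.18e-05). Gabpb1, a subunit of the GA-binding protein, rose by 0.35 ± 0.06 (edgeR adjusted p = 0.000218). The 3 regulators that did not pass were Ppargc1a, Nrf1 and Gabpa. Ppargc1a gave 0.10 ± 0.07 (edgeR adjusted p = 0.266) and Nrf1 0.11 ± 0.05 (edgeR adjusted p = 0.097). Gabpa gave -0.07 ± 0.05 (edgeR adjusted p = 0.232). Of 23 genes for copying and expressing mitochondrial DNA, 7 rose and 1 fell (34.8% called). Lrpprc, which stabilises mitochondrial messenger RNA, rose by 0.31 ± 0.05 (edgeR adjusted p = 0.000259), the mitochondrial polymerase gene Polg by 0.23 and Fastkd2 by 0.31, and Mterf4 fell by 0.40. Without control replicate 2 or control replicate 3, 2 of these genes fell.

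A list of 21 genes of mitochondrial import, membrane channels and carriers, cristae, fusion and fission held 10 that rose and 1 that fell. Of the 21 genes, 52.4% were called, against 45.5% of all genes tested. Tomm40, the import channel of the outer membrane, had 153.4, 172.9 and 161.5 CPM in cadmium and 121.5, 116.0 and 106.2 CPM in control libraries, and rose by 0.50 ± 0.06 (edgeR adjusted p = 6.8e-06). The import receptor gene Tomm70a (0.46) and the prohibitin gene Phb2 (0.36) also rose, and Timm44 fell by 0.14, a call lost under 7 of 15 alternatives, among them each that left out a cadmium library, control replicate 2 or control replicate 3. Of 19 genes of the citric acid cycle and pyruvate entry, 5 rose and 3 fell (42.1% called, near the share over all genes). Idh3a (0.32), Dlat (0.26) and the citrate synthase gene Cs (0.11) rose, and the pyruvate carboxylase gene Pcx and the pyruvate carrier gene Mpc2 were among those that fell, by 0.38 and 0.35. Without one cadmium library 2 or 3 of the 19 rose, and without control replicate 1, 3 rose.

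Electrons also reach coenzyme Q by other enzymes. Of 5 such genes, 3 fell and 1 rose, with a median of -0.44, and 1 fell where at least 5 CPM in 3 libraries was asked for. Etfdh, which takes electrons from fatty acid oxidation, had 90.55, 89.99 and 94.10 CPM in cadmium and 119.1, 123.6 and 129.1 CPM in control libraries, and fell by 0.44 ± 0.05 (edgeR adjusted p = 3.61e-06). The proline dehydrogenase gene Prodh fell by 0.81 ± 0.18 (edgeR adjusted p = 0.00226) and the sulfide oxidase gene Sqor by 0.65 ± 0.16 (edgeR adjusted p = 0.00419). The pyrimidine synthesis gene Dhodh rose by 0.40 ± 0.07 (edgeR adjusted p = 0.000431). Of 13 genes for making and handling coenzyme Q itself, 2 rose and 4 fell (46.2% called, near the share over all genes). Coq8a, a kinase-like protein needed for its synthesis, had 1.65, 2.16 and 2.27 CPM in cadmium and 5.07, 5.17 and 7.24 CPM in control libraries, and fell by 1.52 ± 0.18 (edgeR adjusted p = 1.1e-05). Coq9 and Coq8b each fell by 0.34, while Pdss1, which makes the isoprenoid tail, and Coq10b rose by 0.58 and 0.29.

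Among 11 targets of the hypoxia-inducible factor, 5 rose and 1 fell (54.5% called, against 45.5% of all genes tested). The glucose transporter gene Slc2a1 rose by 0.83 ± 0.06 (edgeR adjusted p = 1.24e-07), the lactate dehydrogenase gene Ldha by 0.46 ± 0.05 (edgeR adjusted p = 5.06e-06) and Vegfa by 0.45 ± 0.10 (edgeR adjusted p = 0.00146). Pdk1, the pyruvate dehydrogenase kinase, fell by 0.42 ± 0.09 (edgeR adjusted p = 0.00181). The share of genes called in these lists ran from 14.3% for the factors of complexes II, III and V to 80% for the other donors to coenzyme Q, beside 22.7% for the subunits and 45.5% for all genes tested.

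**Figure D5:**
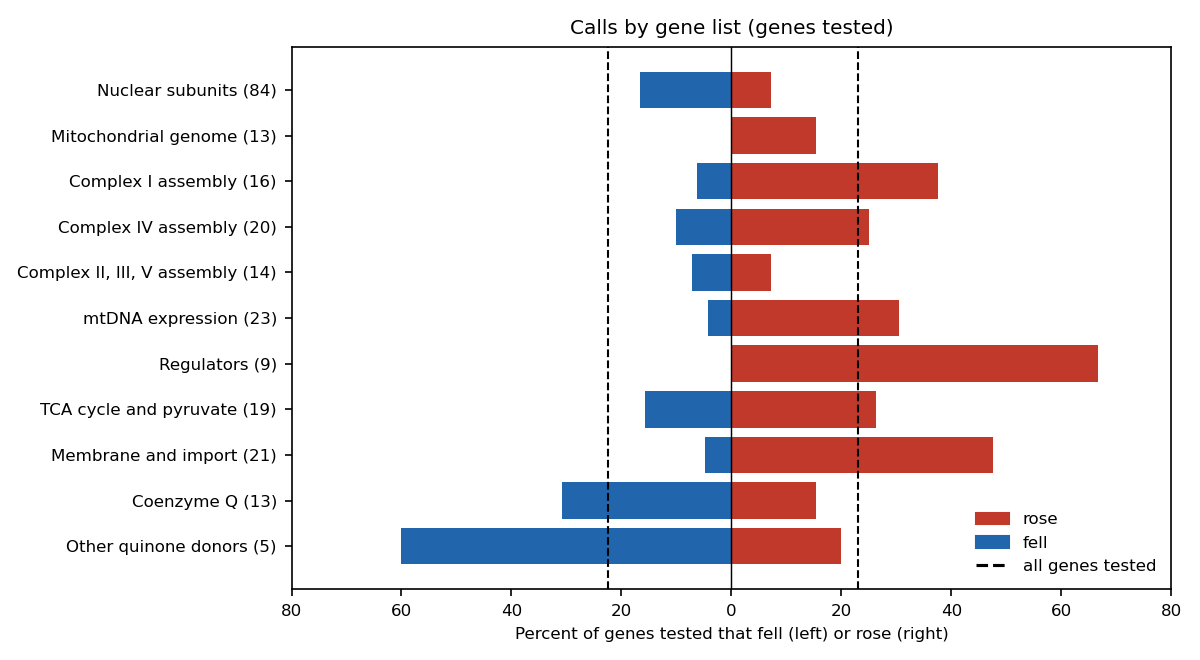
Percent of the genes tested in each list shown that fell (left) or rose (right) by edgeR's adjusted p of 0.05. The number tested is in brackets, and dashed lines give 22.4% and 23.1% for all genes tested. The 4 subunit genes with other symbols and the 11 targets of the hypoxia-inducible factor are not shown. Among 9 regulators 6 rose and 0 fell, and among 84 nuclear subunits 6 rose and 14 fell.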

How the data were processed

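RNA sequencing was analysed in 3 cadmium-treated and 3 control samples, grouped by their labels. The deposited table of counts holds whole reads per gene, and the deposited FPKM values were used for levels between genes and as an alternative test. The submitters' processing notes list DESeq2 1.22.2, HTSeq 0.11.2, HISAT2 2.1.0, fastp 0.20.1 and the build GRCm39. The authors' gene annotation, their strand setting and their handling of reads with several matches are not stated there or in the labels.

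The count test was edgeR's robust quasi-likelihood F test (edgeR 4.0.16, R 4.3.3), two-sided, with TMM scaling and no term beside group. The filterByExpr rule (minimum count 10, minimum total 15) kept 14369 genes with 99.96% of counts. Adjustment was by Benjamini-Hochberg over all genes tested, with a threshold of 0.05. Each SE was taken from the size of the log2 fold change over √F. CPM used TMM-scaled totals. Alternatives used DESeq2 1.42.0 and limma 3.58.1 (log2 of FPKM plus 1 or 0.1). Members and lists were chosen with earlier results of these data known.

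The text names all 13 mitochondrial genes, the isoform families, all 4 Sdh genes, and per complex up to 4 genes in each direction by smallest p (lists: 3). Cox6c, Cox7b2, Atp5o, Atp5e, Ppargc1a, Nrf1, Gabpa and genes given as the ends of a range were named after their values were seen. Replicate numbers were not said to pair cultures, so the test had no block. Some results for genes that meet the naming rule are not reported here.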

Additional observations from a re-analysis of the deposited data

How the results depend on the processing

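Of the 22 subunit genes that passed the test, 9 kept their call under each alternative that tested them (Atp5g1, Cox6a2, Cox6b1, Cox6b2, Cox7a2l, Ndufa1, Ndufv3, ND1 and ND3). Of these, Cox6a2 had passed the count filter through its cadmium libraries alone. The other 13 of the 22 lost their call under at least 1 of 15 alternatives, 0 reversed, and 18 subunit genes outside the call entered it under at least 1. Nuclear genes that rose (6 in the main test) numbered 2 to 9 when 1 library was left out, with 2 without cadmium replicate 2 and 3 without cadmium replicate 3. Nuclear genes that fell (14) numbered 6 to 16 when 1 library was left out, with 6 without cadmium replicate 1 and 9 without cadmium replicate 3. With all libraries kept they numbered 10 by DESeq2 and with no count filter, 11 with median-of-ratios scaling, 17 with upper-quartile scaling and on log2(FPKM + 0.1), and 18 at 5 CPM or more and on log2(FPKM + 1). Mitochondrial genes that rose (2) numbered 2 to 4 when 1 library was left out, with 4 without cadmium replicate 2. Mitochondrial genes that fell (0) numbered 1 with upper-quartile scaling, 2 with no count filter and 0 to 3 when 1 library was left out, with 1 without cadmium replicate 1 and 3 without control replicate 1. The cause of these shifts was not tested. The nuclear median log2 fold change stayed between -0.05 and -0.01, and all genes that changed numbered between 5370 and 6853. Cadmium and control samples of the same replicate number did not deviate together (correlations of 0.023, 0.052 and -0.011), and cadmium replicate 3 correlated best with control replicate 1. A fit with the replicate number as a block gave 6 nuclear genes that rose and 12 that fell, 3 mitochondrial genes that rose (COX3 added) and 0 that fell, and 6509 calls over all genes. Depth limits Cox6a2, Cox4i2, Ndufa4l2 and Cox7b2, each with 25 or fewer counts per library.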
